A study of Rattus norvegicus with 15 samples.

Results

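Mylpf, Myl4, Myl1, Myl12a and Myl12b encode light chains of myosin, and their mRNA was followed over 14 days of culture of H9c2 cells with and without retinoic acid (RA). The genes were picked by symbol, with earlier results of these data known. Of the 7 symbols considered, 5 were among the 11574 genes of the deposited count table, and Myl3 and Myl6b were not analysed here. H9c2 is a myoblast line of rat heart, and all cultures carried the wild-type genotype by their labels. There were 15 cultures, 3 per group, and the groups are named T0, T7-RA and T14-RA for cultures without RA and T7+RA and T14+RA for those with it. The cells were grown with 10% serum and left 24 h to attach, after which serum was lowered to 1%. T0 was harvested 24 h after seeding, the other groups at day 7 or day 14 in medium with 1% serum, and the +RA groups received 1 µM all-trans RA in DMSO each day. In changes from T0, culture time and the lowering of serum therefore cannot be told apart. The sources used here do not say whether the -RA cultures received DMSO alone. The line is grown without heart tissue around it, and every group comes from the same line.

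Myosin is the motor of the thick filament of muscle and of contractile bundles in other cells. The neck of each heavy chain binds an essential light chain, which stiffens the lever arm, and a regulatory light chain, which can be phosphorylated. Mylpf (named Myl11 in RefSeq) is the regulatory chain of fast skeletal muscle, Myl1 is its essential partner, and Myl4 is the essential chain of the atrium that embryonic skeletal muscle also uses. Myl12a and Myl12b are close relatives of each other and encode regulatory chains of nonmuscle myosin, whose phosphorylation drives contraction of the cell cortex and stress fibres.

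The libraries held 508397 to 1030820 counts on the genes of the table, with a median of 666344. Levels are given as CPM, which are counts relative to the library size after scaling with the TMM factors of edgeR, and as means ± SD over 3 cultures. Changes come from edgeR's quasi-likelihood test across all 11574 genes and are on the log2 scale with a standard error (SE), and a gene was called at a Benjamini-Hochberg adjusted p under 0.001. Counting intervals use the counts summed over the 3 cultures of a group and cover counting error only, not the spread between cultures. Reads were counted without molecular identifiers. Of 9 markers fixed for myoblasts and skeletal muscle, 6 were in the table, among them Myod1 and Myog, and Myf5, Myf6 and Pax7 were not. Of 12 cardiomyocyte markers, 4 were in the table (Gata4, Pln, Actc1 and Tnnt2), while Nkx2-5, Tbx5, Myh6, Myh7, Tnni3, Nppa, Nppb and Ryr2 were not among the genes analysed. The 4 present fibroblast markers out of 6 summed to between 18448 and 37564 CPM over all libraries, and the 6 smooth muscle markers to between 15822 and 17306 CPM at T0 and between 3576 and 5586 CPM in the later groups. Col1a1 made up most of the fibroblast sum in every group, and Acta2 most of the smooth muscle sum.

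The sarcomeric chains rose with culture time, and each of them was lower with RA at day 14, whereas no change of the nonmuscle chains was called. Between T0 and T7-RA, 2 of the 5 genes rose and 0 fell, beside 8.78% of all genes called, 4.23% higher and 4.54% lower. Between T7-RA and T14-RA, 3 of the 5 rose and 0 fell, beside 2.95% of all genes called, 1.87% higher and 1.09% lower. In bulk RNA, fewer cells of a type and less RNA per cell cannot be told apart, and this holds for every difference below.

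Mylpf (ENSRNOG00000017645, band 1q37) had the most counts of the 5 genes, 14460 over all libraries. Its level was 33.1, 43.2 and 54.5 CPM in the 3 T0 cultures, 1022, 989 and 1126 CPM in T7-RA, and 4142, 4302 and 4073 CPM in T14-RA. With RA it was 328, 305 and 444 CPM at day 7 and 1212, 1509 and 1459 CPM at day 14. No 2 of the 5 groups overlapped, and the order from low to high was T0, T7+RA, T7-RA, T14+RA and T14-RA. The change from T0 to T7-RA was 4.62 (SE 0.152, edgeR adjusted p = 3.06e-34) and that from T7-RA to T14-RA was 2.00 (SE 0.0999, edgeR adjusted p = 1.21e-24). In the additive model of the study, with terms for T7, T14 and RA, the p-value of Mylpf ranked 2 among the 11574 genes for T7 and for T14, and 16 for RA.

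Myl4 (ENSRNOG00000050675, band 10q32.1) had 3, 2 and 5 counts in the T0 libraries, or 4.14, 3.75 and 10.5 CPM. It reached 96.6, 102 and 144 CPM in T7-RA and 508, 608 and 562 CPM in T14-RA. The +RA cultures had 47.0, 21.5 and 41.1 CPM at day 7 and 147, 179 and 116 CPM at day 14. All 3 T14-RA cultures stood above every other culture, and the T14+RA cultures overlapped those of T7-RA. The change was 4.25 in the first week without RA (SE 0.338, edgeR adjusted p = 1.28e-14) and 2.30 in the second (SE 0.143, edgeR adjusted p = 2.54e-18). In limma on quantile-normalized log2 counts the change of the second week missed the threshold (adjusted p = 0.00126).

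Myl1 (ENSRNOG00000013262, band 9q32) had 0 counts in all 3 T0 libraries and 4, 1 and 2 counts in T7-RA, then 147, 109 and 87 counts in T14-RA. In CPM, the T7-RA cultures were at 4.77, 1.34 and 2.90 and the T14-RA cultures at 177, 193 and 147. The gene was thus barely counted at day 7, when Mylpf and Myl4 already stood at 25.1% and 20.4% of their T14-RA means, against 1.74% for Myl1. Between T7-RA and T14-RA the summed counts gave a 56.0-fold rise (95% counting interval 26.9 to 140), and the fitted change was 5.72 (SE 0.312, edgeR adjusted p = 2.74e-23). A floor of 3 counts over the 3 T0 libraries is 1.73 CPM, so that T14-RA was at least 99.8-fold higher than T0 and T14+RA at least 35.9-fold higher. The change from T0 to T7-RA did not pass the threshold (edgeR adjusted p = 0.0285).

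**Figure D1:**
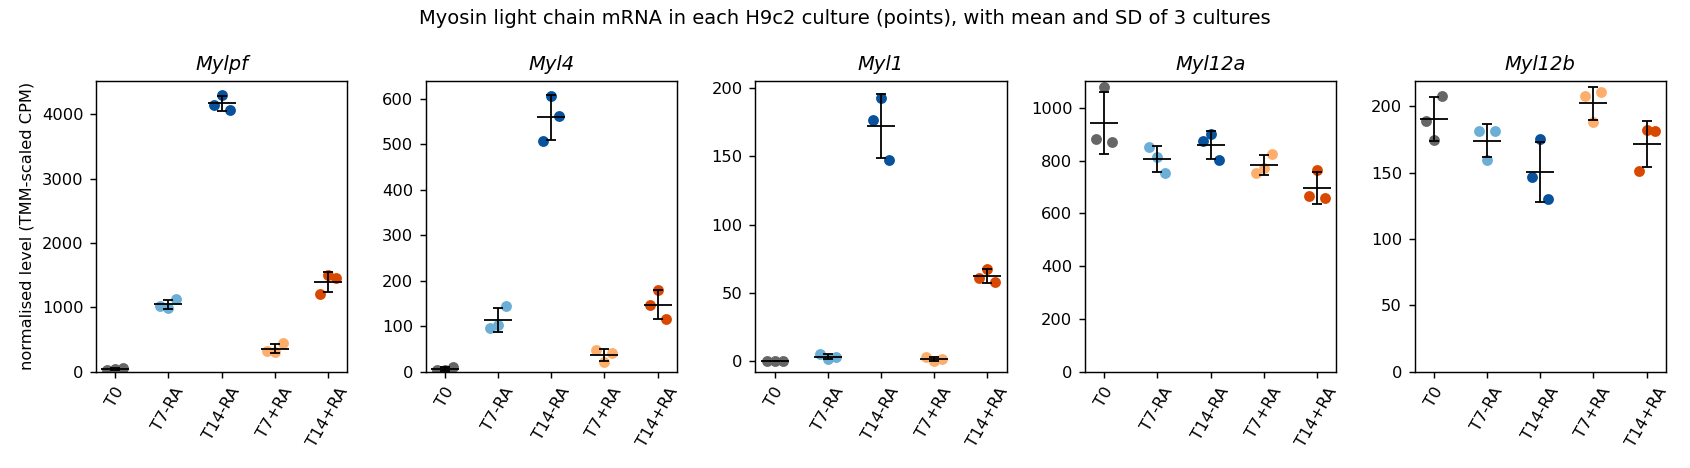
Level of each light chain mRNA (TMM-scaled CPM, linear axis, one panel per gene with its own scale) in every culture of the 5 groups, with the mean and SD of 3 cultures in black. Mylpf, Myl4 and Myl1 peak in T14-RA (4172, 559 and 172 CPM on average) and sit lower in T14+RA, while Myl12a and Myl12b stay between 656 and 1079 CPM and between 130 and 211 CPM.

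The 3 sarcomeric genes rose in the same cultures, so the sequence before their starts is shown. RefSeq windows of build GRCr8 were found for all 5 genes, with a pair of starts for Myl1, and the 250 bases before each start are printed 5′ to 3′ on the gene's strand. Capitals mark the E-box letters CANNTG, which basic helix-loop-helix factors such as Myod1 and Myog can bind. The window of Myl12b, for which no change was called and which holds 0 such matches, follows. That of Myl12a, also without a called change, holds 2 and is not printed.
Mylpf, chr1:191260039-191260288, plus strand: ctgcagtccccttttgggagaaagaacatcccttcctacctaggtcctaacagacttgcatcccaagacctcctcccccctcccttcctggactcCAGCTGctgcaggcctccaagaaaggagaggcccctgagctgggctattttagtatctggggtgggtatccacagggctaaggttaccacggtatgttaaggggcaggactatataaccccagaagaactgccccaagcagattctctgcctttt
Myl4, chr10:89975900-89976149, plus strand: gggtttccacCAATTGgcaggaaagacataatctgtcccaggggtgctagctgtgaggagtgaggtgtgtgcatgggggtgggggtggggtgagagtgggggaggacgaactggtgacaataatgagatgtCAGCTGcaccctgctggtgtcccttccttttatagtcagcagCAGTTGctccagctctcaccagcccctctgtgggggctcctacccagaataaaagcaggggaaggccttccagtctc
Myl1, upstream start, chr9:75907697-75907946, minus strand: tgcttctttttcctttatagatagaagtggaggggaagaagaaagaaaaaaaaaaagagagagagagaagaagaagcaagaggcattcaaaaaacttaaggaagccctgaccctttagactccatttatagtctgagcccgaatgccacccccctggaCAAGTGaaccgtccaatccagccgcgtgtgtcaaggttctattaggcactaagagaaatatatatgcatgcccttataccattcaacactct
Myl1, downstream start, chr9:75897800-75898049, minus strand: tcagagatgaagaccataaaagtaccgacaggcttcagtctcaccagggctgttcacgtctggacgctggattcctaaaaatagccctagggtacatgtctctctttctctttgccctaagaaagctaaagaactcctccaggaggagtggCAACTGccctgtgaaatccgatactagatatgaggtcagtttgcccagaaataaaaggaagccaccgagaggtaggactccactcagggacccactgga
Myl12b, chr9:118334811-118335060, minus strand: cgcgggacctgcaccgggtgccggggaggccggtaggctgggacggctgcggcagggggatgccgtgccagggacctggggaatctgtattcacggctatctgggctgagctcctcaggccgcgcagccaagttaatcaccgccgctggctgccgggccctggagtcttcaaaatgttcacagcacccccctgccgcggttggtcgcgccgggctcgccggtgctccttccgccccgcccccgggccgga

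Both strands were searched, and no match overlapped that of another motif. The E-box letters occurred 1 time before Mylpf, 3 times before Myl4, 1 time before each start of Myl1, 2 times before Myl12a and 0 times before Myl12b. Of all 33469 RefSeq windows of this length, 65.5% hold such a match. A TATA box (TATAAA or TATATA) was found 45 bases before the start of Mylpf, 34 bases before the upstream start of Myl1 (the nearest of 3 in that window) and 91 bases before that of Myl4, and none was found in the windows of Myl12a and Myl12b, against 16.1% of all windows with a match. A MEF2 site, written with the usual consensus for this family of muscle factors, was found only in the window of the downstream start of Myl1 among these 6 windows, and 0.523% of all windows hold one. A CArG box, the site of serum response factor, was found in 0 of these 6 windows and in 1.5% of all windows. The letters AGGTCA, which RA receptors and other nuclear receptors can bind, occurred in that same window and in 4707 of all 33469 windows. The letters were 42.4% to 56.8% G or C in the windows of the sarcomeric genes, 59.6% in that of Myl12a and 71.6% in that of Myl12b, with a median of 51.2% over all windows. These matches are letters in a short window and say nothing on binding.

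The effect of RA was compared at each day. With RA, 2 of the 5 genes fell at day 7 and 0 rose, beside 3.17% of all genes called, 1.87% higher and 1.3% lower. At day 14, 3 of the 5 fell and 0 rose, beside 4.81% of all genes called, 2.46% higher and 2.35% lower. Mylpf fell by 1.55 at day 7 (SE 0.109, edgeR adjusted p = 4.26e-18) and by 1.59 at day 14 (SE 0.0984, edgeR adjusted p = 1.27e-20), so that its mean with RA was 8.60% of the T14-RA mean at day 7 and 33.4% at day 14. Myl4 fell by 1.65 at day 7 (SE 0.217, edgeR adjusted p = 7.04e-08) and by 1.91 at day 14 (SE 0.139, edgeR adjusted p = 4.21e-16). The calls of Myl4 at both days and of Myl1 at day 14 were lost in limma on quantile-normalized log2 counts (adjusted p = 0.00929, 0.00195 and 0.019), with changes in the same direction. For Myl4 and Mylpf alike, every +RA culture lay below every -RA culture of the same day.

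Myl1 had 2, 0 and 1 counts in T7+RA and 63, 43 and 32 counts in T14+RA, or 60.8, 67.6 and 58.0 CPM at day 14. It fell by 1.47 with RA at day 14 (SE 0.181, edgeR adjusted p = 2.3e-09), and all 3 T14+RA cultures were below the lowest of T14-RA. At day 7 the ratio of T7+RA to T7-RA was 0.479 from 3 and 7 counts, with a 95% counting interval of 0.0800 to 2.10, so a change of the size seen at day 14 was not detectable at this depth. The T14+RA cultures stood at 36.1% of the T14-RA mean for Myl1, 33.4% for Mylpf and 26.3% for Myl4.

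In the additive model, which fits a single RA change to both days, 3 of the 5 genes fell and 0 rose, with changes of −1.57 for Mylpf, −1.84 for Myl4 and −1.45 for Myl1, beside 6.39% of all genes called, 3.33% higher and 3.07% lower. For Myl1 this value rests almost wholly on day 14, where its counts lie, and its call was lost in limma on quantile-normalized log2 counts (−1.01, adjusted p = 0.0243). In that model 2 of the 5 rose for T7 and 0 fell (8.73% of all genes were called, 4.29% higher and 4.44% lower). For T14, 3 of the 5 rose and 0 fell (17.3% of all genes were called, 8.47% higher and 8.85% lower). The RA change was also compared between days. The change at day 14 minus that at day 7 was −0.03 for Mylpf (95% interval −0.32 to 0.25), −0.26 for Myl4 (−0.81 to 0.28) and −0.50 for Myl1 (−2.88 to 1.89). In edgeR 0 of the 5 genes were called at an adjusted p under 0.05, beside 0.743% of all genes (0.285% higher and 0.458% lower), and the count was also 0 at an unadjusted p under 0.05 and, adjusted, in DESeq2 and limma. These intervals leave room for a difference between days, widest for Myl1. With RA the second week still brought a rise of 1.96 for Mylpf (SE 0.109, edgeR adjusted p = 1.8e-22), 2.03 for Myl4 (SE 0.209, edgeR adjusted p = 1.07e-10) and 5.23 for Myl1 (SE 0.446, edgeR adjusted p = 1.51e-14), so 3 of the 5 rose and 0 fell, beside 4.67% of all genes called, 2.4% higher and 2.26% lower. The call of Myl4 in this comparison was lost in the same limma fit (adjusted p = 0.00267).

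Markers of muscle were summed beside these genes. The 6 markers present out of 9 summed to between 161 and 259 CPM at T0. At day 7 the sum was 1183 to 1442 CPM without RA and 815 to 989 CPM with RA, and at day 14 it was 4129 to 4323 CPM without RA and 2163 to 2595 CPM with RA. Myog, which drives terminal differentiation, was at 638 ± 6.56 CPM in T14-RA and 569 ± 44.6 in T14+RA, and Ckm, the muscle creatine kinase, at 63.3 ± 18.9 and 70.8 ± 10.8. Acta1, skeletal actin, was at 3258 ± 154 and 1655 ± 175 CPM and made up most of the sum at day 14. Des, the muscle intermediate filament, was at 40.3 ± 3.46 and 39.5 ± 9.35 CPM, and Chrna1, an acetylcholine receptor subunit, at 159.8 ± 19.8 and 26.2 ± 11.4 CPM. Myod1, a factor of muscle commitment, was at 115 ± 40.2 CPM at T0, at 87.9 ± 10.2 without RA and 149 ± 12.8 with RA at day 7, and at 80.2 ± 16.02 without RA and 65.0 ± 10.8 with RA at day 14. The 4 cardiomyocyte markers present summed to between 944 and 1087 CPM in T14-RA and between 653 and 761 in T14+RA. Tnnt2 made up most of that sum (754 ± 76.9 and 628 ± 45.2 CPM), and Actc1 was at 250 ± 23.0 and 33.0 ± 13.9. Gata4 was at 15.9 ± 5.10 and 12.2 ± 1.72, and Pln at 11.4 ± 7.33 and 16.7 ± 5.06. Cd14 was the lone endothelial and blood marker in the table of 6 listed. It was between 16.9 and 28.8 CPM in T14-RA and between 37.6 and 58.1 in T14+RA, without overlap. Between T7-RA and T7+RA the smooth muscle sums overlapped (4058 to 5586 and 4865 to 5449 CPM), and at day 14 they did not (3576 to 3698 and 4162 to 4982 CPM). The part of these markers in the RA changes of the light chains was not tested.

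**Figure D2:**
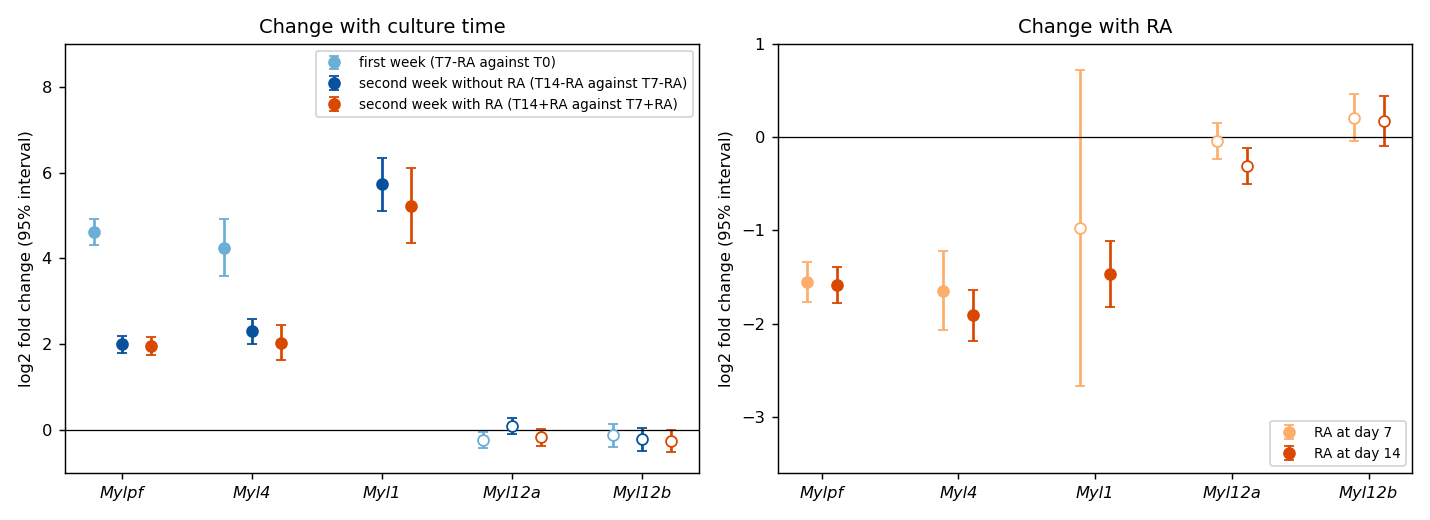
Log2 fold change of each light chain with culture time (left) and with RA (right), with 95% intervals from the edgeR fit, filled where the adjusted p was under 0.001 and open otherwise. Mylpf, Myl4 and Myl1 lie above 0 for time and below 0 for RA, with an open and wide interval for Myl1 with RA at day 7, and Myl12a and Myl12b are open throughout. Myl1 against T0 is not drawn because all T0 libraries had 0 counts.

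Ratios of counts within a library do not depend on the scaling and were used to compare the chains with each other. The log2 ratio of Myl4 to Mylpf was −3.22 ± 0.223 without RA and −3.35 ± 0.517 with RA at day 7, and −2.90 ± 0.109 without RA and −3.26 ± 0.342 with RA at day 14. Averaged over days the ratio with RA was 0.843 of that without, a difference that did not pass a two-sided exact permutation test within days (p = 0.205, adjusted over 2 pairs p = 0.205, n = 3 per group, smallest possible p = 0.005). Without T7+RA replicate 1, which had the highest ratio in these 4 groups, p was 0.015 in the same exact test. Pairs with Myl1 could not be compared at day 7 because a T7+RA library had 0 counts.

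At day 14 the ratio of Mylpf to Myl1 counts was 23.5, 22.3 and 27.6 in the T14-RA libraries and 19.9, 22.3 and 25.2 in T14+RA, so this ratio of the regulatory to the essential chain of fast muscle overlapped between the groups. The ratio of Myl4 to Myl1 was 2.88, 3.15 and 3.82 in T14-RA and 2.41, 2.65 and 2.00 in T14+RA, with no overlap. The exact permutation test gave p = 0.5 for the first and p = 0.1 for the second, and 0.1 is the smallest value that 3 against 3 can reach. At day 7 without RA the libraries had 76, 81 and 99 counts of Myl4 for 1, 4 and 2 of Myl1.

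Myl12a (ENSRNOG00000015278, band 9q38) held between 362 and 729 counts in every library. Its level was 880, 1079 and 872 CPM at T0, and without RA 853, 812 and 754 CPM at day 7 and 876, 902 and 801 CPM at day 14. With RA it was 754, 772 and 826 CPM at day 7 and 665, 764 and 656 CPM at day 14. At day 7 the groups with and without RA overlapped, and at day 14 they did not. The change with RA at day 14 was −0.31 (95% interval −0.50 to −0.12, edgeR adjusted p = 0.0274), which did not pass the threshold of 0.001.

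Myl12b (ENSRNOG00000015733) lies in the same band, and RefSeq lists 0 genes between it and Myl12a. It was counted less, with 77 to 157 counts in a library. Its level was 189, 174 and 208 CPM at T0, and at day 7 it was 181, 160 and 182 CPM without RA and 208, 188 and 211 CPM with RA. At day 14 it was 147, 175 and 130 CPM without RA and 151, 182 and 181 CPM with RA. The +RA cultures were above the -RA cultures at day 7 and overlapped them at day 14. The RA term of the additive model was 0.19 (95% interval 0.01 to 0.38, edgeR adjusted p = 0.195), and the T14 term was −0.35 (95% interval −0.60 to −0.09, edgeR adjusted p = 0.0328). Across the 5 groups the highest mean was 1.34-fold the lowest for Myl12b and 1.36-fold for Myl12a, against 95.7-fold for Mylpf and 91.3-fold for Myl4.

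The nonmuscle pair shifted against each other with RA. There were 0.213, 0.197 and 0.241 counts of Myl12b per count of Myl12a in T7-RA and 0.276, 0.243 and 0.255 in T7+RA. At day 14 the ratio was 0.167, 0.194 and 0.163 without RA and 0.228, 0.239 and 0.276 with RA. At both days every +RA library was above every -RA library. The ratio was 1.30-fold higher with RA averaged over days (two-sided exact permutation test within days, p = 0.005, adjusted over 2 pairs p = 0.01, the smallest value this test can give before adjustment being 0.005, n = 3 per group). At T0 the ratio was 0.215, 0.162 and 0.238, a range that overlaps both kinds of culture. The genes are similar in sequence, and how the counting treated reads that fit both is not given in the sources used here.

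**Figure D3:**
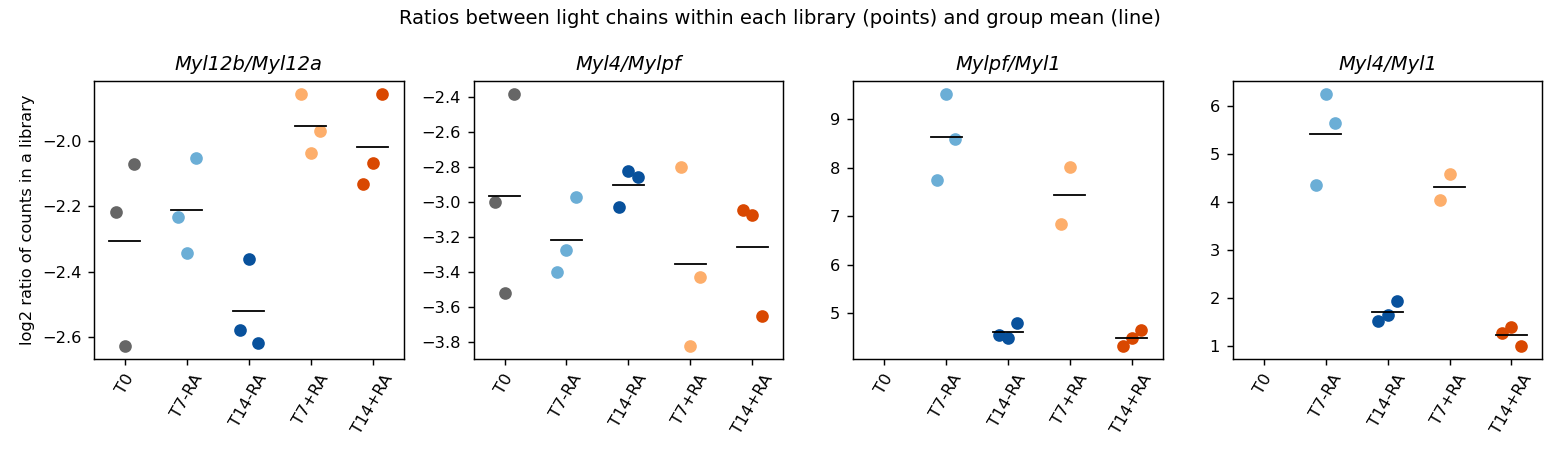
Log2 ratio of the counts of a pair of light chains within each library (points) and the mean of the group (line), on axes with their own range. The Myl12b to Myl12a ratio is higher in all 3 +RA libraries than in the -RA libraries of the same day, and the ratios to Myl1 fall from day 7 to day 14. Libraries with 0 counts of Myl1, which are the 3 of T0 and 1 of T7+RA, are left out of the panels with Myl1.

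Levels of different genes were compared per length, as CPM per kilobase of the gene size given in the table, which by its name is the largest size and ranged from 731 bases for Mylpf to 1192 for Myl12b. On this scale the order at T0 was Myl12a (969 ± 120), Myl12b (160 ± 13.9), Mylpf (59.6 ± 14.6), Myl4 (7.70 ± 4.75) and Myl1 at 0. In T14-RA it was Mylpf (5707 ± 161), Myl12a (882 ± 53.6), Myl4 (703 ± 62.6), Myl1 (177 ± 23.8) and Myl12b (126 ± 19.1), and no neighbours in this order overlapped. In T14+RA, Mylpf (1906 ± 218) and Myl12a (713 ± 61.4) led, and Myl4 (185 ± 39.7) and Myl12b (144 ± 14.7) overlapped, with Myl1 last at 63.8 ± 5.06. In T7-RA, Myl4 (144 ± 32.4) and Myl12b (146 ± 10.4) overlapped too, below Mylpf (1430 ± 97.4) and Myl12a (828 ± 51.1). In T7+RA, Myl12a (805 ± 38.5) still stood above Mylpf (491 ± 102).

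Mylpf, Myl4 and Myl1 together made up 5.65% ± 1.68 of the summed level per kilobase of the 5 genes at T0, and without RA the share was 61.8% ± 2.87 at day 7 and 86.7% ± 0.532 at day 14. With RA their share was 35.3% ± 3.69 at day 7 and 71.5% ± 1.28 at day 14. No 2 groups overlapped in this share. Per kilobase, the regulatory chain Mylpf was at 9.95 ± 1.40 times the sum of the essential chains Myl1 and Myl4 in T7-RA and at 6.50 ± 0.395 times in T14-RA, without overlap, and at 11.3 ± 4.10 and 7.81 ± 1.65 times in T7+RA and T14+RA, where the libraries of both days overlapped. The further light chains Myl6 and Myl9 were not part of the sum. Per kilobase their means were 1208 and 1125 CPM at T0, 643 and 528 in T14-RA and 591 and 880 in T14+RA. A share over all light chains counted would therefore be lower in each of these groups. These shares are a description and were not tested.

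**Figure D4:**
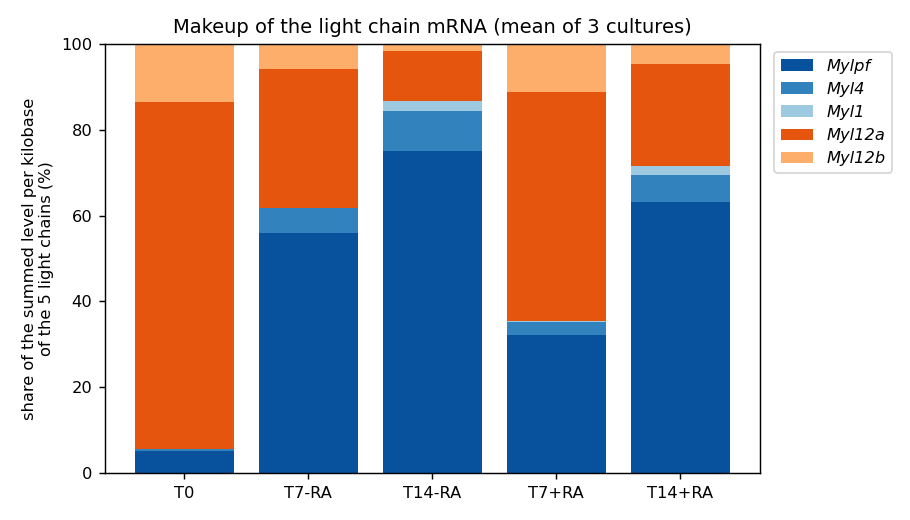
Share of each gene in the summed level per kilobase of the 5 light chains (stacked bars in percent, mean of 3 cultures per group). The blue sarcomeric chains make up 5.65% at T0, 86.7% in T14-RA and 71.5% in T14+RA, and Mylpf alone makes up 75.1% in T14-RA. Myl6 and Myl9 are not part of the sum.

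Genes that followed the same course were sought among the 8374 genes that are no light chain of this set and had a mean of at least 10 counts in a library, by the Pearson correlation of log2 CPM over the 15 libraries. Mylpf was most like Myh3, the embryonic myosin heavy chain (r = 0.993), Tnnt3, the fast skeletal troponin T (0.990), and Hrc, a calcium-binding protein of the sarcoplasmic reticulum (0.987). Myl4 was most like Hrc (0.992), Myom2, an M-band protein (0.989), and Col3a1, a fibrillar collagen (0.984). Myl1 was most like Ckmt2, the mitochondrial creatine kinase of striated muscle (0.966), Xirp1 (0.963) and Bin1, a protein of T-tubule membranes (0.960). For Myl12a they were Cryab, a small heat shock protein (0.917), Prmt7 (0.904) and Sms (0.892), and for Myl12b they were Erlin1 (0.910), Arhgef28 (0.864) and Tram1 (0.864). Between the members, r was 0.984 for Mylpf and Myl4 and 0.0559 for Myl12a and Myl12b. The points share libraries and group means, and these values are a description.

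Of 7 other light chains listed, Myl6 and Myl9 were in the table. Both are chains of smooth muscle and nonmuscle myosin, essential and regulatory, respectively. In the additive model both fell for T14, beside 8.47% of all genes higher and 8.85% lower. Myl9 fell by 0.95 (SE 0.119, edgeR adjusted p = 1.06e-08) and Myl6 by 0.90 (SE 0.146, edgeR adjusted p = 4.46e-05). For RA, 1 of the 2 rose and 0 fell, beside 3.33% of all genes higher and 3.07% lower. RA raised Myl9 by 0.47 (SE 0.0907, edgeR adjusted p = 0.000104), and its level was 583 ± 29.9 CPM in T14-RA and 972 ± 102 in T14+RA, while Myl6 changed by −0.13 (edgeR adjusted p = 0.53). The rise of Myl9 was called at day 14 (0.74, SE 0.106, edgeR adjusted p = 1.53e-07) and not at day 7 (0.21, SE 0.106, edgeR adjusted p = 0.3). The difference between days was not called (0.53, edgeR adjusted p = 0.0862). For RA, Myl9 therefore rose in the model in which Mylpf, Myl4 and Myl1 fell.

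Of 14 heavy chain genes, 8 were in the table, and 2 rose and 0 fell for T14, beside 8.47% of all genes higher and 8.85% lower, with a median change of 0.71 beside 0.05 over all genes. These were Myh3 (6.93, SE 0.160, edgeR adjusted p = 4.15e-41) and Myh8, the perinatal chain, which had 0 counts in every T0 library and at most 13 in T14-RA. In the additive model 1 of the 8 fell with RA and 0 rose, beside 3.07% of all genes lower and 3.33% higher, with a median of −1.23 beside −0.01, and this was Myh3, which fell by 1.33 (SE 0.0789, edgeR adjusted p = 4.86e-21). Both medians draw on sparsely counted genes. For RA these include Myh14 (−1.14, edgeR adjusted p = 0.206), with 4 to 6 counts in T14-RA, and Myh9 (−1.93, edgeR adjusted p = 0.333), with 1 to 41 in T7-RA. Myh10, a well-counted nonmuscle chain, changed by −0.02 (edgeR adjusted p = 0.922). By day, 1 of the 8 fell at day 7, beside 1.3% of all genes lower, and 2 fell at day 14, beside 2.35% lower. The second at day 14 was Myh4, a fast chain, which fell by 2.19 (SE 0.149, edgeR adjusted p = 1.89e-17), from 434 ± 73.9 CPM in T14-RA to 98.1 ± 19.4 in T14+RA. Its course over time differed from that of the sarcomeric light chains. Myh4 was already at 435 ± 34.1 CPM at T0 and fell to 181 ± 23.0 in T7-RA (−1.26, SE 0.136, edgeR adjusted p = 1.3e-10). At day 7 Myh4 changed by −0.66 (SE 0.159, edgeR adjusted p = 0.00332), and its RA change differed between days (edgeR adjusted p = 7.35e-06), so that the single change of the additive model (−1.47, edgeR adjusted p = 0.00208) describes neither day. Reads of such similar heavy chains may have been split between them in the counting.

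Of 11 genes of thick filament assembly, 9 were in the table, and 7 rose and 1 fell for T14, beside 8.47% of all genes higher and 8.85% lower, with a median of 5.23 beside 0.05 over all genes. The gene that fell was Unc45a, the general counterpart of Unc45b, by 0.92 (SE 0.192, edgeR adjusted p = 9.29e-05). In the additive model 2 of the 9 fell with RA and 0 rose, beside 3.07% of all genes lower and 3.33% higher, with a median of −0.26 beside −0.01. At day 7, 1 of the 9 fell, beside 1.3% of all genes lower, and at day 14, 3 fell, beside 2.35% lower. Those at day 14 were Myom2, Mybpc1 and Myom1, an M-band protein (fell by 0.82, SE 0.157, edgeR adjusted p = 6.92e-05). Unc45b, a chaperone that folds muscle myosin, rose by 5.23 (SE 0.318, edgeR adjusted p = 6.47e-21) and stood at 142 ± 19.6 CPM in T14-RA and 122 ± 9.14 in T14+RA. Myom2 rose by 7.08 (SE 0.339, edgeR adjusted p = 1.53e-25) for T14 and was lowered by RA by 2.06 (SE 0.149, edgeR adjusted p = 1.98e-17). Mybpc1, slow myosin-binding protein C, had an RA term of −3.84 (SE 0.387, edgeR adjusted p = 5.46e-12), from 31 to 41 counts a library in T14-RA to 0 to 5 in T14+RA. At day 7 its change with RA was −2.96 (SE 0.692, edgeR adjusted p = 0.00183), just short of the threshold, and that of Myom1 was −0.12 (edgeR adjusted p = 0.855). The difference between days was not called for Mybpc1 (edgeR adjusted p = 0.879) or Myom1 (0.369).

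Regulatory light chains are phosphorylated by several kinases and dephosphorylated by myosin phosphatase. Of 13 symbols listed for the kinases and their activation, 9 were in the table as 10 genes, since 1 symbol names a pair of rows. For T14, 0 of the 10 rose and 3 fell, beside 8.47% of all genes higher and 8.85% lower, among them Cdc42bpb by 0.62 and Cit, citron kinase, by 1.14. The additive model fits a single RA change, whereas that of Cit differed between days (−0.84, SE 0.203, edgeR adjusted p = 0.0227). It was 0.43 at day 7 (edgeR adjusted p = 0.0287) and −0.41 at day 14 (edgeR adjusted p = 0.0823). In the additive model 2 of the 10 rose with RA and 0 fell, beside 3.33% of all genes higher and 3.07% lower. These were Mylk, the smooth muscle and nonmuscle light chain kinase, by 1.02 (SE 0.107, edgeR adjusted p = 1.73e-11) and Rock2 by 0.64 (SE 0.0996, edgeR adjusted p = 9.55e-07). By day, 1 of the 10 rose at day 7, which was Mylk, beside 1.87% of all genes higher. At day 14, 2 rose, which were Mylk and Rock2, beside 2.46% higher. Rock2 rose by 0.61 at day 7 (SE 0.136, edgeR adjusted p = 0.00106), just short of the threshold, and by 0.68 at day 14 (SE 0.138, edgeR adjusted p = 0.000227). Its difference between days was not called (0.07, edgeR adjusted p = 0.967). Mylk stood at 142 ± 16.9 CPM in T14-RA and 257 ± 26.7 in T14+RA. The median RA change of the 10 genes was 0.17, and that of all genes −0.01.

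Of 9 genes listed for the light chain phosphatase and its regulators, together with the ubiquitin ligase Mylip, 6 were in the table. For T14, 2 rose, which were Ppp1cb and Mylip, and 1 fell, beside 8.47% of all genes higher and 8.85% lower. The gene that fell was Ppp1r12c, a myosin-targeting subunit, by 0.82 (SE 0.190, edgeR adjusted p = 0.00039). For RA, 0 of the 6 were called in the additive model of edgeR, beside 6.39% of all genes, with 2 at an unadjusted p under 0.05. At day 7, 1 rose, beside 1.87% of all genes higher, and at day 14, 0 were called, beside 4.81% of all genes. Ppp1cb, the catalytic subunit, rose by 1.08 for T14 (SE 0.129, edgeR adjusted p = 6.21e-10), and Mylip, a ubiquitin ligase named for its binding to regulatory light chains, by 2.53 (SE 0.462, edgeR adjusted p = 1.03e-05) from at most 7 counts in a T0 library. The gene called at day 7 was Ppp1r12b, a relative of Ppp1r12c, which rose by 1.14 with RA (SE 0.177, edgeR adjusted p = 1.18e-06), from 63.1 ± 22.04 CPM in T7-RA to 139 ± 9.48 in T7+RA. At day 14 it changed by 0.20 (SE 0.164, edgeR adjusted p = 0.547), and the difference between days passed its threshold (−0.94, edgeR adjusted p = 0.039), so that the additive value of 0.64 (edgeR adjusted p = 0.00225) describes neither day. Mylip changed by −0.73 in the additive model (SE 0.256, edgeR adjusted p = 0.0438).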

How the data were processed

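RNA of 15 cultures was sequenced as stranded poly(A) libraries. The deposited table holds raw counts per gene that the authors made with HISAT2 and featureCounts, with Rnor_6.0 named in the submitters' processing notes, limited to genes whose counts over all libraries summed to over 20. Versions and the strand and multi-mapping settings of the counting are not given in the sources used here. Groups came from the labels, whose cell line field carries a running number after T0 where the titles name H9c2 throughout. The study calls the replicates biological, and nothing else ties or separates the cultures. All pairs of replicates differed by more than sampling noise.

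edgeR 4.0.16 (R 4.3.3) was fitted to the counts of all 11574 genes with TMM factors and robust quasi-likelihood dispersions (common biological CV 9.81%), as the additive model of the study (T7, T14, RA) and with 5 group means. DESeq2 1.42.0 and limma 3.58.1 were alternatives. Same-numbered cultures did not deviate together (mean r 0.0180 over 30 pairs), so no block was used. Precision follows from the 508397 to 1030820 counts per library. Per-kilobase values use the table's size column. Promoters are RefSeq windows of GRCr8, a later build than that of the counts. The members, lists and tests were chosen with earlier results of these data known. All members were named, with the 3 most alike genes for each and, from each list, the 2 genes with the lowest p-values for T14 and for RA, except 1 gene that is not reported here. Cit, Unc45a, Myom1, Ppp1r12c, Myh9, Myh10, Myh14 and the levels of single markers were named after their values were seen.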

Additional observations from a re-analysis of the deposited data

How the results depend on the processing

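Each count of called light chains kept its value within 1.5 times under other scalings, DESeq2, limma-voom, a filter by group, a threshold of 0.05 and on leaving out each library, and 0 calls of a light chain were lost on leaving out a library. The threshold of 0.05 added Myl1 for T7 (edgeR adjusted p = 0.0173) and for T7-RA against T0 (0.0285). It also added the nonmuscle chains Myl12b for T14 (edgeR adjusted p = 0.0328) and Myl12a for RA at day 14 (0.0274). With at least 10 counts required in every library, Myl1 and Myl4 were not tested, and 1 light chain was called for T7, T14 and RA in the additive model, for both weeks without RA, for the second week with RA and for RA at either day. With limma on quantile-normalized log2(count + 1), 1 was called for RA at day 7 and 1 at day 14, where the calls lost were those of Myl4 (adjusted p = 0.00929 and 0.00195) and of Myl1 at day 14 (0.019). It also lost Myl1 for RA in the additive model (0.0243) and Myl4 in the second week without RA (0.00126) and with RA (0.00267). The cause was not tested. That method also called fewer of all genes, 297 instead of 1010 for T7, 1095 instead of 2004 for T14 and 310 instead of 740 for RA, and turned the sign of uncalled changes: Myl12a for T7 (0.104), T14 (0.0894) and T7-RA against T0 (0.0149), and the day difference of Mylpf (0.0971) and Myl12b (0.00371). Leaving out single libraries turned the sign of uncalled changes as well, with ranges of −0.0803 to 0.000905 for Myl12a with RA at day 7 and, for the day difference, −1.10 to 0.330 for Myl1, −0.142 to 0.139 for Mylpf and −0.133 to 0.0633 for Myl12b. Scaling by library size alone moved the median of all genes to 0.13 for T7 and 0.15 for T14 and turned the sign of 0 light chains.

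With the replicate number as a block, the counts of called light chains did not change, and 1083, 2088 and 797 of all genes were called for T7, T14 and RA. Under paired sign flips with this block the Myl12b to Myl12a ratio kept its log2 change of 0.38, with an exact p of 0.03125, the smallest that the sign flips of 6 pairs can give, and 0.0625 adjusted, so that this design could not pass 0.05 after adjustment unless both ratios did. Of 15 libraries 6 correlated best with one of their own number. On leaving out libraries, the log2 change of the Myl4 to Mylpf ratio ranged from −0.38, without T7+RA replicate 1 (exact p = 0.015), to −0.13. Myl1 had 0 to 4 counts in a library before day 14, and this depth limits its values there. Ratios to Myl1 at day 14 alone were added after the counts were seen.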
